A study of Caenorhabditis elegans with 45 samples.

Results

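The genes described here are the 33 protein-coding genes of Caenorhabditis elegans whose names begin with the clone names T28A11, F35F10, C17B7 or T20D4, out of 46926 genes (19985 protein coding) in the deposited table. All 33 lie on the left arm of chromosome V. The clones were chosen by the levels of their genes in egl-9 libraries against N2, where they were low, so the values in the egl-9 and N2 libraries are given below as a description, without a test. Tests were made in libraries that carry other mutations. The data are polyA-selected RNA-seq libraries of whole young adult hermaphrodites, taken 6 hours after the L4 stage at 20 °C and 20% oxygen on OP50 bacteria, with 300 to 500 larvae per sample. There were 9 genotypes with 5 libraries each (A to E), 45 libraries in all, which the labels call biological replicates.

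The alleles were smg-2(r863), smg-1(n6597), egl-9(sa307) and hif-1(ia4). Worms with the smg-2, egl-9 and hif-1 mutations are called the smg-2 triple mutant below, those with the smg-2 and egl-9 mutations the smg-2 double mutant, and those with the smg-2 mutation only smg-2. The same names are used with smg-1: the smg-1 triple mutant also carries the egl-9 and hif-1 mutations, the smg-1 double mutant also carries the egl-9 mutation, and smg-1 worms carry that mutation only. The genotypes with no smg mutation were egl-9 hif-1, egl-9 and the wild type N2, and the plots write every genotype in full. Each genotype was 1 strain, so genotype and other differences between strains cannot be told apart. Both egl-9 and hif-1 lie on chromosome V, 7.04 Mb and 17.3 Mb beyond the last of the 33 genes.

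EGL-9 is the worm prolyl hydroxylase that, when oxygen is plentiful, tags HIF-1, a transcription factor of the response to low oxygen, for destruction. Worms without EGL-9 accumulate HIF-1 and switch on its targets in normal oxygen, and loss of hif-1 removes that response. SMG-2 is the RNA helicase and SMG-1 the kinase of nonsense-mediated decay, the pathway that destroys transcripts with a premature stop codon and some normal ones. The 33 genes carry only clone-based names, and the sources used here give no function for them. Clone-based names number the genes predicted on 1 cloned piece of the genome, so genes of a clone are neighbours.

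Libraries held 9822412 to 33169699 estimated counts (median 16917459), of which the 33 genes took 101 to 5248 counts, or 0.000814% to 0.0271% of a library. The deposited levels are log2(TPM + 1), where TPM is a level corrected for transcript length and scaled to the same total in each library; they are given below as TPM. The genes are therefore low in a whole worm, and a level of 0 means that no read was assigned at this depth. Log2 fold changes of single genes are given ± SE. The egl-9 transcript was at 35.1 to 56.4 TPM in the 15 libraries with egl-9 loss and hif-1 intact, against 3.50 to 10.3 TPM in all others. The hif-1 transcript was at 94.6 to 181 TPM in the smg triple mutants, 5.23 to 15.3 TPM in egl-9 hif-1 and 41.6 to 74.99 TPM in the genotypes with hif-1 intact. The smg-1 transcript was at 16.7 to 58.3 TPM in the 6 smg genotypes and 7.13 to 17.2 TPM in the others, and smg-2 at 7.30 to 20.7 TPM in smg-2 genotypes and 9.96 to 22.8 TPM in the others, so smg-2 level does not mark the smg-2 libraries. Estimated counts share reads between similar genes, so related neighbours can exchange some signal, and whether counting used strand is not given in the sources used here.

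In the Ensembl 115 annotation of build WBcel235 the 33 genes span 182 kb of chromosome V, from base 3249604 to base 3431635, with 17 on the plus and 16 on the minus strand. T28A11 holds 11 of them (3249604 to 3282702), F35F10 holds 6 (3284929 to 3320105), C17B7 holds 9 (3320343 to 3354086) and T20D4 holds 7 (3393321 to 3431635). The longest gap between neighbouring members is 39.2 kb, between C17B7 and T20D4. No exon of a member overlaps an exon of another annotated gene, and 27 members have 1 annotated transcript. Exonic length has a median of 730 bases (132 to 2775). The coding sequences cluster in size: the longest coding sequence of 14 members lies between 582 and 603 bases. Strand is mixed along the row, so the members are not arranged as a single run in 1 direction.

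Summed over the 33 genes, the level was 188 ± 16.97 TPM in the smg-2 triple mutant, 18.6 ± 2.30 TPM in the smg-2 double mutant and 199.6 ± 14.1 TPM in smg-2 (mean ± SD, n = 5 each). The same sum was 221 ± 24.1 TPM in the smg-1 triple mutant, 27.7 ± 3.94 TPM in the smg-1 double mutant and 272 ± 65.8 TPM in smg-1. Without a smg mutation it was 137 ± 21.3 TPM in egl-9 hif-1, 17.03 ± 4.19 TPM in egl-9 and 151 ± 21.4 TPM in N2. The 3 genotypes with egl-9 loss and hif-1 intact were low in every library, and the 6 others were high in every library. In a library of those 3 genotypes, 8 to 20 of the 33 genes were listed at 0, against 0 to 5 in a library of any other genotype. In bulk RNA, fewer cells that use these genes and less RNA per cell cannot be told apart. The heat map of every member in every library shows this as 3 dark column blocks that run across all 4 clones.

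**Figure D1:**
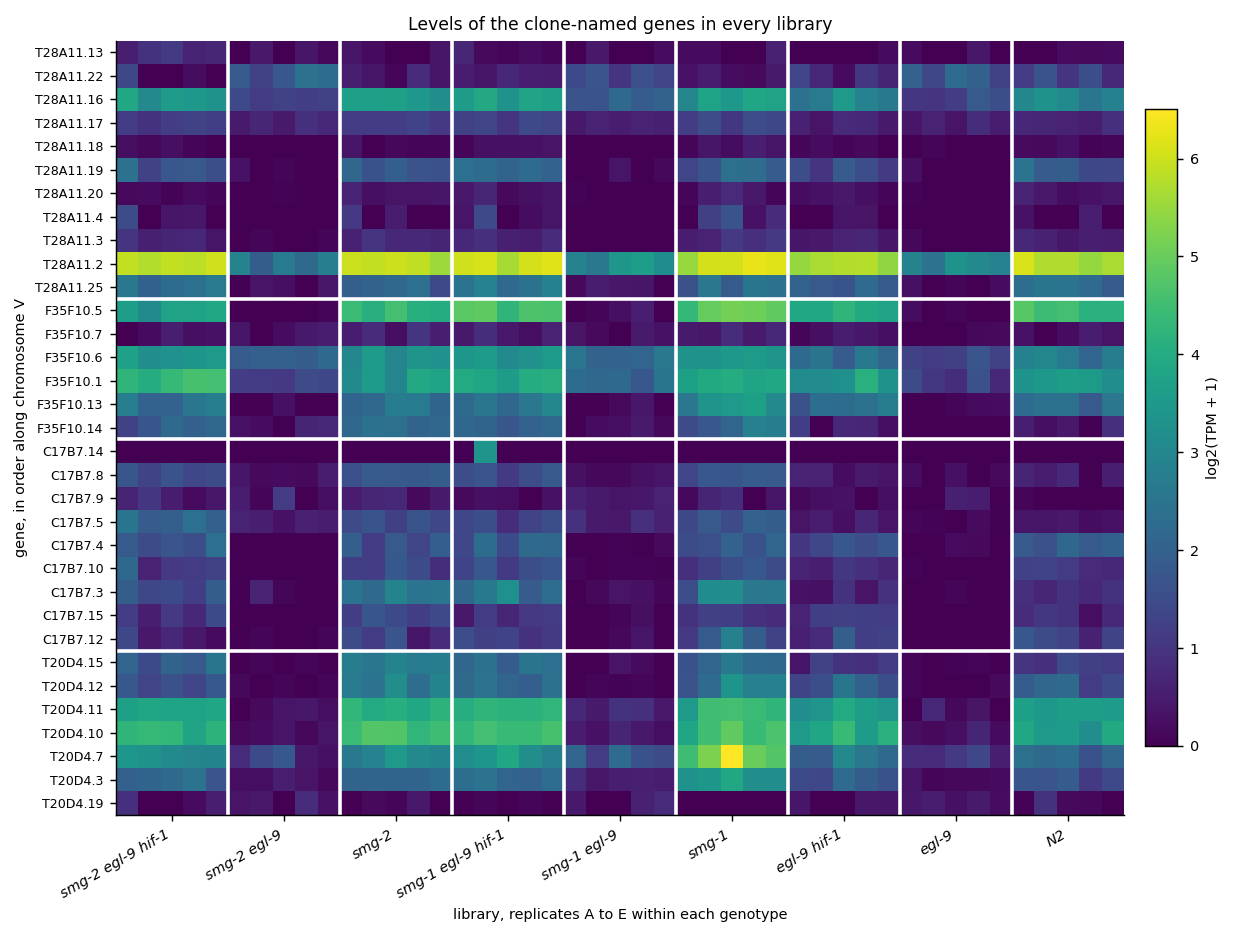
Level of each of the 33 genes (rows, in chromosomal order) in each of the 45 libraries (columns, by genotype), as log2(TPM + 1). Dark colours are low levels and bright colours high ones. The smg-2 double mutant, smg-1 double mutant and egl-9 libraries are dark for nearly all rows, while T28A11.22 is on average brightest there.

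The first question was whether egl-9 loss also lowers these genes in worms with a mutation in nonsense-mediated decay. It did so in both smg backgrounds: 24 genes fell and 1, T28A11.22, rose in the smg-2 double mutant against smg-2, and the counts were the same in the smg-1 double mutant against smg-1. These counts are out of 25 members with enough reads to be tested among 16053 genes, by edgeR quasi-likelihood tests with Benjamini-Hochberg adjusted p under 0.05 over all genes tested. Of all genes tested, 21.9% fell and 41.0% changed in either direction in the smg-2 background, and 25.3% fell and 25.1% rose in the smg-1 background. The median log2 fold change of the 25 was -4.91 in the smg-2 background (-4.86 with genes absent from 1 group set at their bound), against -0.02 over all genes tested. In the smg-1 background it was -4.37, against -0.02 over all genes. A gene could enter the test through the genotypes where it was high, so these counts and medians describe the tested members and not all 33. Without a filter on low counts all 33 could be tested, and 26 fell in the smg-2 and 27 in the smg-1 background.

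By clone, 6 of the 7 tested T28A11 genes fell and 1 rose in each background. All 5 tested F35F10 genes, all 7 tested C17B7 genes and all 6 tested T20D4 genes fell in both. The median log2 fold changes in the smg-2 and smg-1 backgrounds were -3.70 and -2.93 for T28A11, and -3.65 and -4.37 for F35F10. They were -5.50 and -4.96 for C17B7, and -6.59 and -4.87 for T20D4.

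The neighbours did not share this pattern as a block. Within 100 kb of the outermost members lay 72 other protein-coding genes, 32 of which were tested: 10 fell and 5 rose in the smg-2 double mutant against smg-2, and 12 fell and 7 rose in the smg-1 double mutant against smg-1. Of all genes tested, 21.9% fell in the smg-2 background, and 25.3% fell and 25.1% rose in the smg-1 background. A larger share of the tested neighbours than of all genes thus fell in both. Of the 72 neighbours, 22 lie between members and 10 of the 22 were tested, with median log2 fold changes of -0.35 in the smg-2 and -0.17 in the smg-1 background. In the smg-2 double mutant against smg-2, 4 of the 10 fell, namely C04E12.4 (-0.54), C04E12.2 (-1.12), arrd-22 (-1.17) and txt-11 (-1.75), and 0 rose. In the smg-1 double mutant against smg-1, C04E12.2 (-1.34), arrd-22 (-0.80) and txt-11 (-2.84) fell, while fbxa-64 (0.47) and fbxa-65 (0.49) rose. These 6 were named after their values were seen. Some genes in the flanks fell in both backgrounds, with smg-2 and smg-1 values of -3.81 and -2.75 for C36C5.15 and -3.62 and -3.42 for C36C5.14. Those of irg-1 were -2.33 and -3.26, and those of exh-1 -2.32 and -2.03. Others in the flanks rose in both, such as C36C5.12 (1.37 and 1.78) and K08D9.6 (1.44 and 1.37). These flank genes were also named after their values were seen. The 4 neighbours with the highest levels lie in the flanks. The highest, lys-7, a lysozyme gene of antibacterial defence, rose by 2.80 ± 0.20 in the smg-2 double mutant against smg-2 (adjusted p = 1.3e-14) and by 3.34 ± 0.21 in the smg-1 double mutant against smg-1 (adjusted p = 1.6e-16). In the smg-2 and smg-1 backgrounds ugt-64 had log2 fold changes of -0.85 and -1.53, which both passed the test, and K08D9.9 had 0.48 and 1.02 and apx-1 had 0.42 and 0.48, of which the smg-1 values passed.

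Most tested pseudogenes in the same stretch fell with the members. Between the members lie 16 annotated pseudogenes, a list added after the data were seen, and 13 of them were tested. A pseudogene could also enter the test through the genotypes where it was high, so these values describe the 13 only. In the smg-2 double mutant against smg-2, 12 fell and 0 rose (median log2 fold change -2.98), where 21.9% of all genes fell. In the smg-1 double mutant against smg-1, 12 fell and 0 rose (median -2.67), where 25.3% of all genes fell. With hif-1 loss on top, 12 rose in the smg-2 background (median 2.65) and 11 in the smg-1 background (median 2.55). Of all genes, 28.4% and 24.0% rose there. When set against egl-9 hif-1, 12 of the 13 rose in the smg-2 triple mutant (median 4.40) and 12 in the smg-1 triple mutant (median 3.92). Of all genes, 25.8% and 18.6% rose in these comparisons.

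**Figure D2:**
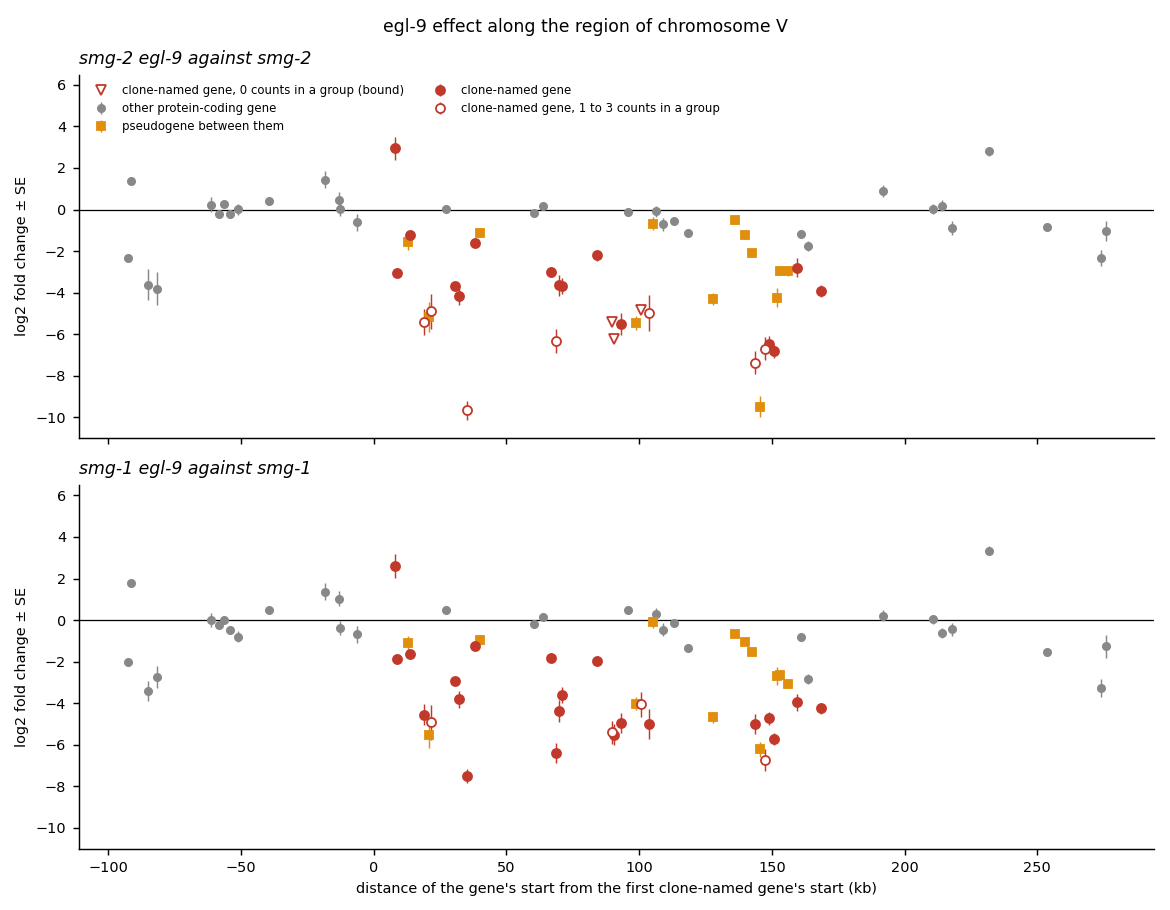
Log2 fold change with egl-9 loss against position along the region (kb from the first member), for the smg-2 double mutant against smg-2 (top) and the smg-1 double mutant against smg-1 (bottom). Members are coloured points with SE bars, open circles rest on 1 to 3 counts in 1 group, open triangles are bounds, grey points are other coding genes and orange squares pseudogenes. Nearly all members lie below -1 in both panels, while the grey points lie on both sides of 0. They run from -3.81 to 2.80 (top) and from -3.42 to 3.34 (bottom).

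Cell type markers were read beside this result, from lists of 8 genes each that were all found and none of which was at 0 in any genotype. Sperm markers, the major sperm protein genes, moved with it: 8 of 8 fell in the smg-2 double mutant against smg-2 (median -1.08) and 7 of 8 in the smg-1 double mutant against smg-1 (median -0.66). Their summed level was 257.9 to 316.1 CPM (counts scaled by library size) in smg-2 double mutant libraries, against 476.8 to 707.6 CPM in smg-2. It was 253.7 to 532.9 CPM in smg-1 double mutant libraries, against 535.8 to 696.5 CPM in smg-1, and 190.7 to 379.2 CPM in egl-9, against 415.9 to 715.7 CPM in N2. With hif-1 loss on top, 8 of 8 sperm markers rose in both backgrounds (medians 0.90 and 0.77 in the smg-2 and smg-1 backgrounds). Of oocyte and germ line markers, 4 rose and 1 fell in the smg-2 background, and 5 rose in the smg-1 background. Pharynx markers fell in 2 of 8 cases in the smg-2 double mutant and in 7 of 8 in the smg-1 double mutant, each against its smg control. For scale, 21.9% of all genes tested fell and 41.0% changed in either direction in the smg-2 double mutant against smg-2. In the smg-1 double mutant against smg-1, 25.3% fell and 25.1% rose. With hif-1 loss on top, 28.4% and 24.0% of all genes rose in the smg-2 and smg-1 backgrounds. Intestine, hypodermis, muscle, neuron, excretory and glial lists had at most 4 of 8 genes changed in 1 direction. The part of these shifts in the result was not tested; the median log2 fold change of sperm markers in the smg-2 background was -1.08, against -4.91 for the tested members. A list of 8 known HIF-1 targets went the other way, with 8 of 8 higher in both double mutants (medians 5.10 and 4.80).

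The members with the highest mean level, and the highest of each clone, are described next with their value in each library (A to E, in that order), clone by clone along the chromosome. T28A11.2 (WBGene00020869, chromosome V, 3280379 to 3281167, plus strand) was the highest of all 33. T28A11.2 had 59.2, 53.2, 59.2, 56.9 and 64.05 TPM in the 5 smg-2 triple mutant libraries, 6.52, 2.78, 5.39, 3.76 and 5.88 TPM in the smg-2 double mutant and 61.8, 58.4, 62.8, 58.2 and 45.9 TPM in smg-2. T28A11.2 in the smg-1 background had 64.6, 67.6, 49.3, 66.8 and 71.1 TPM in the smg-1 triple mutant, 6.35, 5.12, 9.82, 11.4 and 7.97 TPM in the smg-1 double mutant and 44.3, 66.9, 65.5, 77.5 and 72.2 TPM in smg-1. T28A11.2 without a smg mutation had 43.2, 50.1, 53.4, 53.6 and 42.2 TPM in egl-9 hif-1, 6.46, 4.54, 9.21, 7.31 and 6.40 TPM in egl-9 and 68.0, 52.2, 51.9, 43.5 and 50.2 TPM in N2. Every library of the 3 low genotypes was below every library of the 6 others, and T28A11.2 was still read in all of the low ones. T28A11.2 changed with egl-9 loss by a log2 fold change of -3.70 ± 0.20 (adjusted p = 6.5e-19) in the smg-2 double mutant against smg-2 and of -2.93 ± 0.18 (adjusted p = 1.4e-16) in the smg-1 double mutant against smg-1. T28A11.2 changed with hif-1 loss on top by 3.66 ± 0.20 (adjusted p = 7.1e-19) in the smg-2 triple mutant against the smg-2 double mutant and by 2.92 ± 0.18 (adjusted p = 1.4e-16) in the smg-1 triple mutant against the smg-1 double mutant. The 2 triple mutants were within the spread of the smg-2, smg-1 and N2 libraries.

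T28A11.16 (WBGene00020878, chromosome V, 3258374 to 3259218, minus strand) had a smaller difference. T28A11.16 had 13.6, 7.38, 10.9, 10.06 and 9.20 TPM in the 5 smg-2 triple mutant libraries, 1.72, 1.21, 1.42, 1.32 and 1.41 TPM in the smg-2 double mutant and 11.7, 11.8, 12.0, 10.13 and 8.28 TPM in smg-2. T28A11.16 in the smg-1 background had 10.8, 14.1, 8.88, 12.9 and 11.7 TPM in the smg-1 triple mutant, 2.16, 2.20, 3.65, 2.7 and 3.19 TPM in the smg-1 double mutant and 6.81, 12.7, 10.03, 13.5 and 12.4 TPM in smg-1. T28A11.16 without a smg mutation had 4.37, 5.28, 10.3, 6.36 and 5.18 TPM in egl-9 hif-1, 1.05, 1.01, 1.28, 2.52 and 1.93 TPM in egl-9 and 6.99, 9.07, 7.66, 4.91 and 6.26 TPM in N2. The double mutant libraries did not overlap their smg controls, and egl-9 did not overlap N2. T28A11.16 changed with egl-9 loss by a log2 fold change of -3.06 ± 0.25 (adjusted p = 3.3e-13) in the smg-2 double mutant against smg-2 and of -1.88 ± 0.23 (adjusted p = 9.2e-09) in the smg-1 double mutant against smg-1. T28A11.16 changed with hif-1 loss on top by 2.90 ± 0.25 (adjusted p = 1e-12) in the smg-2 triple mutant against the smg-2 double mutant and by 1.98 ± 0.22 (adjusted p = 2.4e-09) in the smg-1 triple mutant against the smg-1 double mutant. The other T28A11 genes that fell were T28A11.17, T28A11.19, T28A11.20 and T28A11.25, along with those described here; T28A11.17, named after its values were seen, had the smallest change in the smg-2 background among them (-1.21 ± 0.24, adjusted p = 8.4e-05).

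T28A11.22 (WBGene00044526, chromosome V, 3257577 to 3258304, plus strand), named after its values were seen, went the opposite way. T28A11.22 had 1.67, 0, 0, 0.17 and 0 TPM in the 5 smg-2 triple mutant libraries, 2.61, 1.41, 2.42, 4.39 and 3.96 TPM in the smg-2 double mutant and 0.45, 0.28, 0.07, 0.71 and 0.30 TPM in smg-2. T28A11.22 in the smg-1 background had 0.43, 0.32, 0.68, 0.46 and 0.42 TPM in the smg-1 triple mutant, 1.77, 2.26, 1.0, 2.0 and 1.57 TPM in the smg-1 double mutant and 0.25, 0.40, 0.16, 0.12 and 0.39 TPM in smg-1. T28A11.22 without a smg mutation had 1.56, 0.67, 0.14, 1.06 and 0.60 TPM in egl-9 hif-1, 3.13, 1.62, 3.85, 3.01 and 1.39 TPM in egl-9 and 1.23, 2.22, 0.97, 1.97 and 0.69 TPM in N2. It was higher in every smg-2 double mutant and smg-1 double mutant library than in any library of smg-2 or smg-1. The egl-9 and N2 libraries overlapped. T28A11.22 changed with egl-9 loss by a log2 fold change of 2.94 ± 0.55 (adjusted p = 4.4e-05) in the smg-2 double mutant against smg-2 and of 2.61 ± 0.59 (adjusted p = 0.00031) in the smg-1 double mutant against smg-1. T28A11.22 changed with hif-1 loss on top by -3.36 ± 0.61 (adjusted p = 1.2e-05) in the smg-2 triple mutant against the smg-2 double mutant and by -1.82 ± 0.51 (adjusted p = 0.003) in the smg-1 triple mutant against the smg-1 double mutant. With all libraries T28A11.22 had -0.42 ± 0.77 (adjusted p = 0.74) in the smg-2 triple mutant against smg-2 and a difference of the hif-1 effect between backgrounds of -1.54 ± 0.84 (adjusted p = 0.22), and without smg-2 triple mutant library A these were -3.03 (adjusted p = 0.013) and -4.16 (adjusted p = 0.0016), which passed. Without that library, the one smg-2 triple mutant library well above 0, the value against the smg-2 double mutant was -5.97 and that against egl-9 hif-1 was -4.35 (-1.74 with all libraries). T28A11.22 and T28A11.16 lie on opposite strands, end to end, 69 bases apart and moved in opposite directions; whether their reads were told apart by strand is not given in the sources used here.

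**Figure D3:**
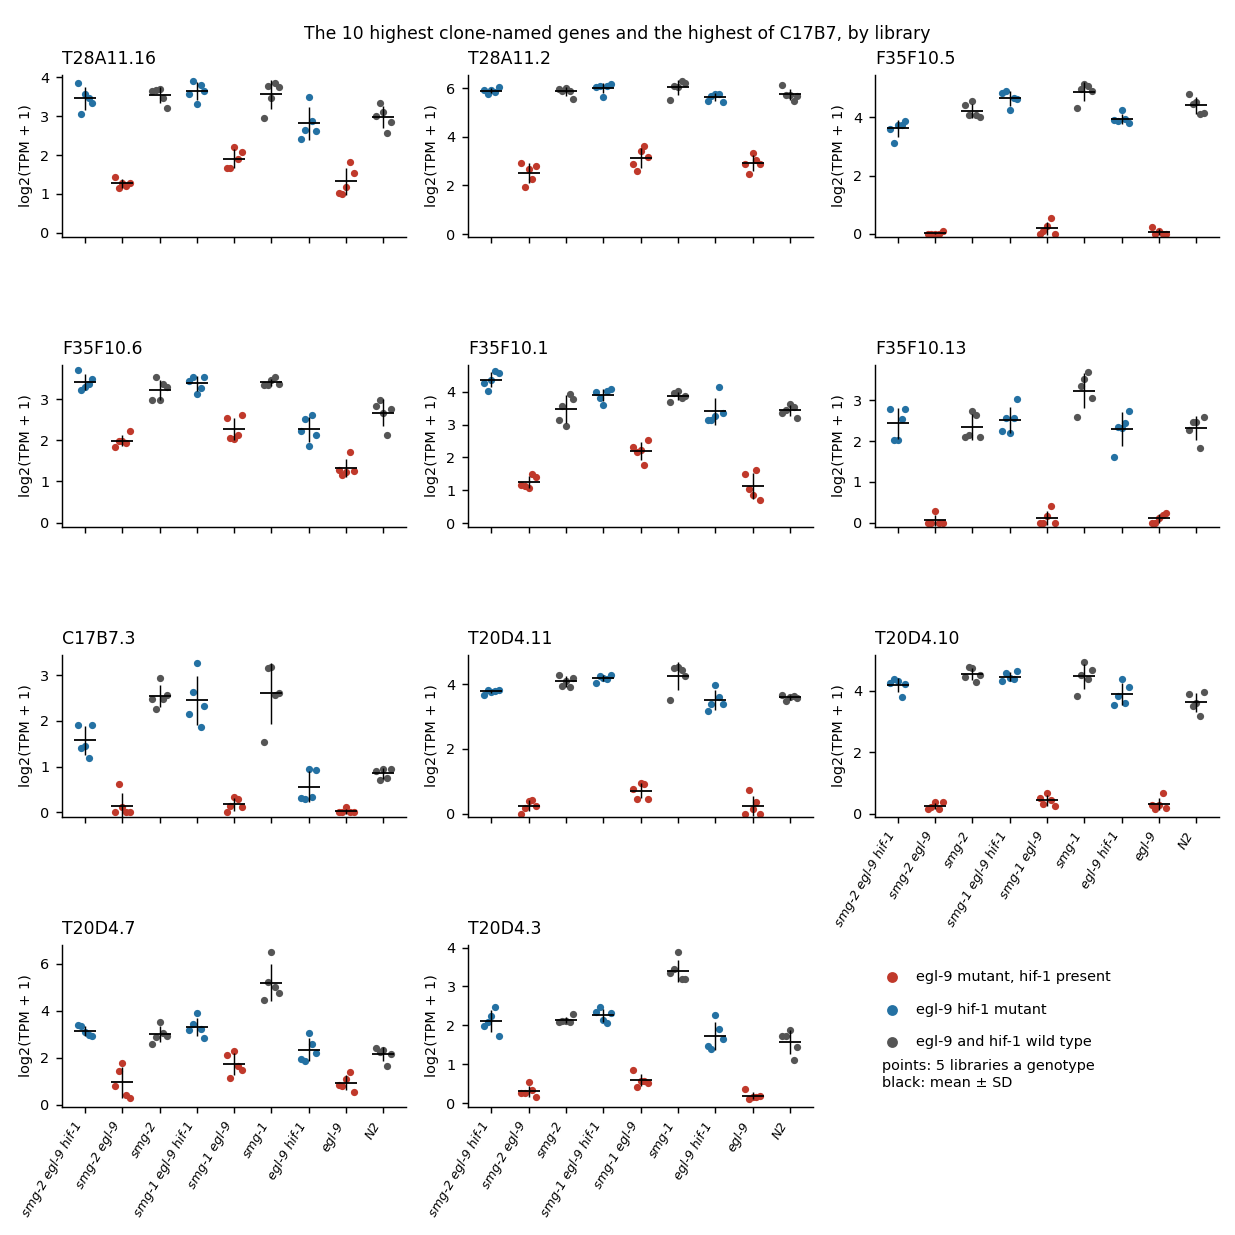
Level of the 11 members chosen by their mean level, as log2(TPM + 1) in each library by genotype (points), with the mean and SD of the 5 libraries (bars). In each panel all smg-2 double mutant points lie below those of smg-2, all smg-1 double mutant points below those of smg-1 and all egl-9 points below those of N2.

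In F35F10, F35F10.5 (WBGene00018055, chromosome V, 3284929 to 3285902, plus strand) had the widest difference. F35F10.5 had 11.25, 7.64, 12.4, 12.4 and 13.9 TPM in the 5 smg-2 triple mutant libraries, 0, 0, 0, 0 and 0.06 TPM in the smg-2 double mutant and 20.4, 15.8, 22.7, 16.0 and 15.3 TPM in smg-2. F35F10.5 in the smg-1 background had 27.5, 28.7, 17.9, 24.7 and 23.8 TPM in the smg-1 triple mutant, 0, 0.07, 0.20, 0.46 and 0 TPM in the smg-1 double mutant and 19.2, 30.4, 34.4, 32.8 and 29.2 TPM in smg-1. F35F10.5 without a smg mutation had 14.0, 13.7, 18.1, 14.5 and 12.9 TPM in egl-9 hif-1, 0.17, 0, 0.06, 0 and 0 TPM in egl-9 and 27.3, 21.1, 22.4, 16.4 and 16.6 TPM in N2. The highest library of the 3 low genotypes was at 0.46 TPM, and the lowest of the 6 others at 7.64 TPM. The 5 smg-2 double mutant libraries held 1 count in all, against 1434 in smg-2, a level 1356-fold (95% interval 243 to 53595) lower (exact, counting error only; adjusted p = 1.3e-20). The log2 fold change of F35F10.5 in the smg-1 double mutant against smg-1 was -7.52 ± 0.34 (adjusted p = 2.6e-21). With hif-1 loss, the smg-2 triple mutant libraries held 670 counts, against 1 in the smg-2 double mutant, which is 749-fold (95% interval 134 to 29629) higher (adjusted p = 4.6e-19), and the smg-1 value was 7.29 ± 0.34 (adjusted p = 1e-20).

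F35F10.6 (WBGene00018056, chromosome V, 3287968 to 3289367, minus strand) had the smallest fall among the members named by level. F35F10.6 had 12.1, 8.35, 8.77, 9.29 and 10.2 TPM in the 5 smg-2 triple mutant libraries, 2.59, 2.96, 2.97, 2.81 and 3.66 TPM in the smg-2 double mutant and 6.85, 10.6, 6.83, 9.31 and 8.84 TPM in smg-2. F35F10.6 in the smg-1 background had 9.91, 10.7, 7.67, 8.71 and 10.6 TPM in the smg-1 triple mutant, 4.82, 3.18, 3.10, 3.35 and 5.11 TPM in the smg-1 double mutant and 9.14, 9.16, 9.97, 10.7 and 9.25 TPM in smg-1. F35F10.6 without a smg mutation had 3.66, 4.7, 2.62, 5.17 and 3.40 TPM in egl-9 hif-1, 1.44, 1.22, 1.34, 2.28 and 1.38 TPM in egl-9 and 6.19, 6.92, 5.37, 3.37 and 5.73 TPM in N2. It stayed well above 0 in the smg-2 double mutant and smg-1 double mutant but below every library of the matching smg control. F35F10.6 changed with egl-9 loss by a log2 fold change of -1.61 ± 0.17 (adjusted p = 2.9e-10) in the smg-2 double mutant against smg-2 and of -1.23 ± 0.16 (adjusted p = 6.2e-08) in the smg-1 double mutant against smg-1. F35F10.6 changed with hif-1 loss on top by 1.75 ± 0.17 (adjusted p = 1.5e-11) in the smg-2 triple mutant against the smg-2 double mutant and by 1.23 ± 0.16 (adjusted p = 5.1e-08) in the smg-1 triple mutant against the smg-1 double mutant.

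F35F10.1 (WBGene00018052, chromosome V, 3316307 to 3317851, plus strand) also kept a readable level. F35F10.1 had 18.2, 15.3, 19.4, 23.6 and 22.6 TPM in the 5 smg-2 triple mutant libraries, 1.26, 1.18, 1.12, 1.84 and 1.66 TPM in the smg-2 double mutant and 7.71, 10.9, 6.81, 14.1 and 12.8 TPM in smg-2. F35F10.1 in the smg-1 background had 14.8, 13.1, 11.1, 15.2 and 15.8 TPM in the smg-1 triple mutant, 3.96, 3.47, 3.69, 2.39 and 4.75 TPM in the smg-1 double mutant and 11.9, 14.5, 15.2, 13.02 and 13.7 TPM in smg-1. F35F10.1 without a smg mutation had 7.74, 7.78, 8.66, 16.5 and 9.11 TPM in egl-9 hif-1, 1.81, 1.06, 0.81, 2.05 and 0.65 TPM in egl-9 and 9.15, 9.97, 11.4, 10.6 and 8.18 TPM in N2. Its low genotypes reached at most 4.75 TPM, and its 6 other genotypes were at 6.81 TPM or more. F35F10.1 changed with egl-9 loss by a log2 fold change of -3.001 ± 0.25 (adjusted p = 5.8e-13) in the smg-2 double mutant against smg-2 and of -1.81 ± 0.22 (adjusted p = 1.6e-08) in the smg-1 double mutant against smg-1. F35F10.1 changed with hif-1 loss on top by 3.87 ± 0.25 (adjusted p = 2.2e-16) in the smg-2 triple mutant against the smg-2 double mutant and by 1.86 ± 0.22 (adjusted p = 6.9e-09) in the smg-1 triple mutant against the smg-1 double mutant. The return with hif-1 loss was higher in the smg-2 than in the smg-1 background, and its test is given below.

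F35F10.13 (WBGene00018062, chromosome V, 3318170 to 3319075, minus strand) was at 0 in most libraries of the double mutants. F35F10.13 had 5.85, 3.11, 3.09, 4.83 and 5.88 TPM in the 5 smg-2 triple mutant libraries, 0, 0, 0.22, 0 and 0 TPM in the smg-2 double mutant and 3.28, 3.47, 5.62, 5.28 and 3.27 TPM in smg-2. F35F10.13 in the smg-1 background had 3.78, 4.88, 3.59, 4.95 and 7.12 TPM in the smg-1 triple mutant, 0, 0, 0.12, 0.33 and 0 TPM in the smg-1 double mutant and 5.0, 9.27, 10.4, 11.9 and 7.31 TPM in smg-1. F35F10.13 without a smg mutation had 2.07, 4.07, 3.96, 4.44 and 5.72 TPM in egl-9 hif-1, 0, 0, 0.08, 0.14 and 0.17 TPM in egl-9 and 3.86, 4.50, 4.51, 2.55 and 4.99 TPM in N2. At most 0.33 TPM was reached in the 3 low genotypes, while every other library had at least 2.07 TPM. There were 2 counts in the smg-2 double mutant, against 226 in smg-2, a level 107-fold (95% interval 29.2 to 888) lower (adjusted p = 7.5e-12), and the smg-1 log2 fold change was -6.41 ± 0.48 (adjusted p = 2.7e-14). After hif-1 loss there were 180 counts in the smg-2 triple mutant, against 2 in the smg-2 double mutant, 101-fold (95% interval 27.5 to 837) higher (adjusted p = 4.2e-12), and the smg-1 value was 5.59 ± 0.49 (adjusted p = 3e-12).

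C17B7 genes were low throughout, and the highest was C17B7.3 (WBGene00015877, chromosome V, 3342804 to 3343865, plus strand). C17B7.3 had 2.76, 1.65, 1.74, 1.29 and 2.76 TPM in the 5 smg-2 triple mutant libraries, 0, 0.53, 0.08, 0 and 0 TPM in the smg-2 double mutant and 4.59, 3.78, 6.68, 4.53 and 4.91 TPM in smg-2. C17B7.3 in the smg-1 background had 3.41, 5.23, 8.67, 2.62 and 4.03 TPM in the smg-1 triple mutant, 0, 0.10, 0.27, 0.23 and 0.08 TPM in the smg-1 double mutant and 1.89, 7.90, 8.04, 4.94 and 5.09 TPM in smg-1. C17B7.3 without a smg mutation had 0.25, 0.22, 0.92, 0.26 and 0.91 TPM in egl-9 hif-1, 0, 0, 0.09, 0 and 0 TPM in egl-9 and 0.88, 0.63, 0.94, 0.67 and 0.94 TPM in N2. C17B7.3 was below 1 TPM in all N2 and egl-9 hif-1 libraries, and every library of the smg-2, smg-1 and triple mutant worms was above all of those. C17B7.3 changed with egl-9 loss by a log2 fold change of -5.50 ± 0.52 (adjusted p = 3e-11) in the smg-2 double mutant against smg-2 and of -4.96 ± 0.48 (adjusted p = 3.9e-11) in the smg-1 double mutant against smg-1. C17B7.3 changed with hif-1 loss on top by 4.32 ± 0.56 (adjusted p = 2.3e-08) in the smg-2 triple mutant against the smg-2 double mutant and by 4.46 ± 0.48 (adjusted p = 6.7e-10) in the smg-1 triple mutant against the smg-1 double mutant. C17B7.4, C17B7.10 and C17B7.15 were at 0 in all smg-2 double mutant libraries, which makes them at least 42.6-, 74.1- and 29-fold lower there than in smg-2, with 0 read as a limit of 3 counts over the group.

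In T20D4, T20D4.10 (WBGene00020616, chromosome V, 3400252 to 3401063, plus strand) had the highest mean over all libraries. T20D4.10 had 18.2, 19.6, 18.9, 12.8 and 17.3 TPM in the 5 smg-2 triple mutant libraries, 0.12, 0.16, 0.29, 0.11 and 0.30 TPM in the smg-2 double mutant and 20.7, 26.2, 25.6, 18.6 and 21.5 TPM in smg-2. T20D4.10 in the smg-1 background had 18.6, 22.7, 20.2, 19.96 and 23.6 TPM in the smg-1 triple mutant, 0.44, 0.24, 0.60, 0.37 and 0.18 TPM in the smg-1 double mutant and 13.3, 21.8, 29.3, 19.9 and 24.4 TPM in smg-1. T20D4.10 without a smg mutation had 10.5, 13.2, 19.8, 11.1 and 16.4 TPM in egl-9 hif-1, 0.21, 0.12, 0.21, 0.59 and 0.15 TPM in egl-9 and 13.7, 10.3, 11.04, 8.06 and 14.4 TPM in N2. The 3 low genotypes reached 0.60 TPM at most, and the 6 others started at 8.06 TPM. T20D4.10 changed with egl-9 loss by a log2 fold change of -6.83 ± 0.33 (adjusted p = 3.1e-20) in the smg-2 double mutant against smg-2 and of -5.74 ± 0.29 (adjusted p = 2.1e-19) in the smg-1 double mutant against smg-1. T20D4.10 changed with hif-1 loss on top by 6.40 ± 0.33 (adjusted p = 2.6e-19) in the smg-2 triple mutant against the smg-2 double mutant and by 5.72 ± 0.29 (adjusted p = 1.9e-19) in the smg-1 triple mutant against the smg-1 double mutant.

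Its neighbour T20D4.11 (WBGene00020617, chromosome V, 3398690 to 3399640, plus strand) followed the same pattern. T20D4.11 had 11.8, 13.2, 12.6, 12.8 and 13.2 TPM in the 5 smg-2 triple mutant libraries, 0, 0.13, 0.30, 0.34 and 0.18 TPM in the smg-2 double mutant and 18.7, 14.6, 16.1, 14.0 and 17.3 TPM in smg-2. T20D4.11 in the smg-1 background had 15.5, 18.2, 17.2, 16.9 and 18.6 TPM in the smg-1 triple mutant, 0.69, 0.38, 0.94, 0.87 and 0.37 TPM in the smg-1 double mutant and 10.4, 21.8, 22.4, 20.5 and 17.9 TPM in smg-1. T20D4.11 without a smg mutation had 8.09, 9.47, 14.8, 11.3 and 9.43 TPM in egl-9 hif-1, 0, 0.66, 0.11, 0.27 and 0 TPM in egl-9 and 11.8, 10.2, 11.23, 11.5 and 10.98 TPM in N2. Here the 3 low genotypes ended at 0.94 TPM and the 6 others began at 8.09 TPM. T20D4.11 changed with egl-9 loss by a log2 fold change of -6.48 ± 0.36 (adjusted p = 3.1e-18) in the smg-2 double mutant against smg-2 and of -4.74 ± 0.30 (adjusted p = 1.1e-16) in the smg-1 double mutant against smg-1. T20D4.11 changed with hif-1 loss on top by 6.08 ± 0.37 (adjusted p = 2.2e-17) in the smg-2 triple mutant against the smg-2 double mutant and by 4.66 ± 0.30 (adjusted p = 1.7e-16) in the smg-1 triple mutant against the smg-1 double mutant.

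T20D4.7 (WBGene00020613, chromosome V, 3408902 to 3409528, plus strand) stood out in smg-1. T20D4.7 had 9.61, 9.18, 7.49, 6.82 and 6.70 TPM in the 5 smg-2 triple mutant libraries, 0.74, 1.73, 2.47, 0.33 and 0.23 TPM in the smg-2 double mutant and 5.08, 6.41, 10.4, 7.31 and 6.61 TPM in smg-2. T20D4.7 in the smg-1 background had 8.12, 9.68, 13.9, 8.32 and 6.15 TPM in the smg-1 triple mutant, 3.35, 1.22, 3.86, 2.14 and 1.79 TPM in the smg-1 double mutant and 21.4, 36.3, 89.6, 31.2 and 26.2 TPM in smg-1. T20D4.7 without a smg mutation had 2.81, 2.67, 7.28, 5.0 and 3.65 TPM in egl-9 hif-1, 0.77, 0.74, 1.15, 1.63 and 0.45 TPM in egl-9 and 4.3, 3.71, 4.08, 2.11 and 3.46 TPM in N2. The smg-1 libraries were above all others, and library C was far above the other smg-1 libraries. T20D4.7 changed with egl-9 loss by a log2 fold change of -2.81 ± 0.46 (adjusted p = 5.1e-06) in the smg-2 double mutant against smg-2 and of -3.97 ± 0.40 (adjusted p = 1.6e-10) in the smg-1 double mutant against smg-1. T20D4.7 changed with hif-1 loss on top by 2.88 ± 0.46 (adjusted p = 1.6e-06) in the smg-2 triple mutant against the smg-2 double mutant and by 1.88 ± 0.39 (adjusted p = 0.00013) in the smg-1 triple mutant against the smg-1 double mutant.

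T20D4.3 (WBGene00020609, chromosome V, 3418228 to 3422779, plus strand), with 2145 exonic bases, was likewise highest in smg-1. T20D4.3 had 2.98, 3.26, 3.75, 4.56 and 2.30 TPM in the 5 smg-2 triple mutant libraries, 0.19, 0.19, 0.45, 0.26 and 0.11 TPM in the smg-2 double mutant and 3.23, 3.30, 3.30, 3.27 and 3.89 TPM in smg-2. T20D4.3 in the smg-1 background had 4.07, 4.53, 3.38, 3.16 and 3.97 TPM in the smg-1 triple mutant, 0.79, 0.34, 0.47, 0.48 and 0.44 TPM in the smg-1 double mutant and 9.11, 9.82, 13.7, 8.21 and 8.07 TPM in smg-1. T20D4.3 without a smg mutation had 1.76, 1.60, 3.80, 2.77 and 2.14 TPM in egl-9 hif-1, 0.28, 0.08, 0.11, 0.11 and 0.14 TPM in egl-9 and 2.33, 2.29, 2.7, 1.14 and 1.70 TPM in N2. The smg-1 libraries did not overlap those of any other genotype. T20D4.3 changed with egl-9 loss by a log2 fold change of -3.93 ± 0.29 (adjusted p = 1.9e-14) in the smg-2 double mutant against smg-2 and of -4.24 ± 0.26 (adjusted p = 1.1e-16) in the smg-1 double mutant against smg-1. T20D4.3 changed with hif-1 loss on top by 3.85 ± 0.29 (adjusted p = 2.4e-14) in the smg-2 triple mutant against the smg-2 double mutant and by 2.91 ± 0.26 (adjusted p = 4.1e-12) in the smg-1 triple mutant against the smg-1 double mutant.

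The remaining 8 members had too few reads for the filter: T28A11.13, T28A11.18, T28A11.4, T28A11.3, F35F10.7, C17B7.14, C17B7.9 and T20D4.19. T28A11.18, T28A11.4 and T28A11.3 were at 0 in all smg-1 double mutant libraries and so at least 9.52-, 7.14- and 17.9-fold lower there than in smg-1. In the smg-2 double mutant libraries, T28A11.18 and T28A11.4 were at 0 too, at least 3.78- and 2.84-fold lower than in smg-2, and T28A11.3 had 2 counts, against 39 in smg-2, 18.4-fold (95% interval 4.77 to 158) lower. In smg-2, T28A11.18 and T28A11.4 had only 12 and 9 counts, of which 7 and 6 came from 1 library. Of the smg-2 libraries, 1 and 3 were also at 0, so both genes overlapped there and their bounds rest on few counts. By their group counts these 3 genes lie on the side of the tested majority, which was not tested. F35F10.7 had 16 counts in the smg-2 double mutant, against 37 in smg-2, and 15 in the smg-1 double mutant, against 35 in smg-1. T28A11.13 had 6 counts in the smg-2 double mutant, against 6 in smg-2, and 5 in the smg-1 double mutant, against 8 in smg-1. C17B7.9 had 17 counts in the smg-2 double mutant, against 25 in smg-2, and 24 in the smg-1 double mutant, against 16 in smg-1. T20D4.19 had 10 counts in the smg-2 double mutant, against 3 in smg-2, and 17 in the smg-1 double mutant, against 0 in smg-1, a level at least 4.76-fold higher than in smg-1. C17B7.14, with 132 exonic bases, had 1 count in all 45 libraries, which its shortness turns into 9.35 TPM in replicate B of the smg-1 triple mutant worms. No test was made for these 8 in the filtered analysis.

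The second question was whether the low level needs HIF-1. With hif-1 also lost, 24 of the 25 tested members rose and T28A11.22 fell, in the smg-2 triple mutant against the smg-2 double mutant and equally in the smg-1 triple mutant against the smg-1 double mutant. Of all genes tested, 28.4% rose and 29.2% fell in the smg-2 background, and 24.0% rose and 25.7% fell in the smg-1 background. The median log2 fold change was 3.87 in the smg-2 background (0.05 over all genes) and 4.03 in the smg-1 background (-0.02 over all genes). These comparisons share the double mutant libraries with those of egl-9 loss, so the pair of results is not independent. Without a filter 27 of 33 members rose in each background.

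A comparison of each triple mutant with its smg control, which leaves out the low libraries, asked whether the return was complete. In the smg-1 triple mutant against smg-1, 2 of 25 members differed, T20D4.7 and T20D4.3, both lower, and 0.891% of all genes tested differed in either direction. T20D4.7 averaged 9.24 ± 2.92 TPM in the smg-1 triple mutant and 40.9 ± 27.8 TPM in smg-1 (SD, n = 5 each), a log2 fold change of -2.09 ± 0.36 (adjusted p = 0.00028). Without smg-1 library C the value was -1.50 (adjusted p = 0.012), and a model of those 2 genotypes alone gave an adjusted p of 0.053. T20D4.3 averaged 3.82 ± 0.55 TPM in the smg-1 triple mutant and 9.78 ± 2.31 TPM in smg-1, a log2 fold change of -1.33 ± 0.22 (adjusted p = 0.00023).

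In the smg-2 triple mutant against smg-2, 7 of 25 members differed, 5 lower and 2 higher, where 18.6% of all genes were lower and 29.6% differed in either direction. Many genes outside the clones thus differ between the smg-2 triple mutant and smg-2 libraries. The 5 lower were T28A11.20 (15 counts in the smg-2 triple mutant, against 51 in smg-2, a log2 fold change of -1.56 ± 0.56, adjusted p = 0.03), F35F10.5 (-0.73 ± 0.21, adjusted p = 0.0072), C17B7.3 (-1.18 ± 0.35, adjusted p = 0.0093), T20D4.15 (-0.94 ± 0.31, adjusted p = 0.02) and T20D4.12 (-1.63 ± 0.33, adjusted p = 0.0002). The 2 higher were F35F10.1 (0.87 ± 0.21, adjusted p = 0.0013) and C17B7.5 (0.88 ± 0.24, adjusted p = 0.0036). C17B7.3, for example, averaged 2.04 ± 0.68 TPM in the smg-2 triple mutant and 4.90 ± 1.08 TPM in smg-2, whereas F35F10.1 averaged 19.8 ± 3.36 TPM in the smg-2 triple mutant and 10.5 ± 3.16 TPM in smg-2. The T28A11.20 call was lost with no filter (adjusted p = 0.051), with a DESeq2 Wald test (-1.60, adjusted p = 0.058) and without library C, D or E of the smg-2 triple mutant genotype or library A or E of smg-2 (-1.57 to -1.25). That of F35F10.5 was lost without smg-2 triple mutant library B or smg-2 library C (-0.56 and -0.52), and that of T20D4.15 without smg-2 triple mutant library B or D or smg-2 library C or E (-0.83 to -0.71). Both directions occurred within the same clones, F35F10 and C17B7.

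Whether the effects differed between the smg backgrounds was tested as a difference of differences, smg-2 minus smg-1. For egl-9 loss, 0 of 25 members passed in edgeR, where 0.847% of all genes passed. At an unadjusted p under 0.05 there were 9, and 3 passed in a DESeq2 Wald test. The shares of all genes under those rules are not given here, so no excess can be read from the 9 or the 3. F35F10.1 passed when smg-2 library A, smg-2 library C or smg-1 double mutant library D was left out. For hif-1 loss, 3 of 25 passed, against 14.6% of all genes. They were F35F10.1 (2.01 ± 0.33, adjusted p = 1.5e-05), C17B7.5 (1.71 ± 0.36, adjusted p = 0.00073) and T28A11.2 (0.74 ± 0.26, adjusted p = 0.046), each with a greater return in the smg-2 background. The T28A11.2 call was lost in 11 of the alternatives that each leave out 1 library (0.58 to 0.75). With limma on the deposited log2 values it was lost too (0.52, adjusted p = 0.14). Without smg-1 triple mutant library C, 5 members passed.

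Comparing the smg-2 and smg-1 worms directly, T20D4.7 and T20D4.3 were lower in smg-2 and no other tested member differed, where 2.78% of all genes did. Their log2 fold changes in smg-2 against smg-1 were -2.47 ± 0.37 (adjusted p = 1.2e-05) and -1.47 ± 0.23 (adjusted p = 2.2e-05). Without smg-1 library C that of T20D4.7 was -1.94, and without smg-2 library C or smg-1 library A, F35F10.5 and F35F10.13 passed as well, 4 members in all. In the smg-2 double mutant against the smg-1 double mutant, 5 members were lower and 0 higher, where 2.19% of all genes differed. These were T28A11.16 (-1.18 ± 0.26, adjusted p = 0.0046), T28A11.2 (-0.92 ± 0.20, adjusted p = 0.0035), F35F10.1 (-1.55 ± 0.25, adjusted p = 6.5e-05), T20D4.11 (-1.90 ± 0.47, adjusted p = 0.017) and T20D4.3 (-1.17 ± 0.32, adjusted p = 0.04). The T20D4.11 call was lost without smg-2 double mutant library A, B or E or smg-1 double mutant library C (-1.86 to -1.61), which left 3 members each time, and with the deposited log2 values (adjusted p = 0.068). The T20D4.3 call was lost without smg-2 double mutant library A, B, D or E or smg-1 double mutant library A, C or E (-1.19 to -0.95, adjusted p = 0.072 to 0.18), with only the genotypes compared (adjusted p = 0.12) and with the deposited log2 values (-0.28, adjusted p = 0.30). The T28A11.2 call was lost with only the genotypes compared (adjusted p = 0.10).

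The third question was what the smg mutations do to these genes in worms that carry the hif-1 mutation. In the smg-1 triple mutant against egl-9 hif-1, 12 of 25 members were higher and 0 lower, where 18.6% of all genes were higher and 18.0% lower (median log2 fold change 0.58, against -0.04 over all genes). The F35F10.5 call was lost without library A or B of either genotype (0.53 to 0.55). The T20D4.7 call was lost without smg-1 triple mutant library C or egl-9 hif-1 library A, B or E (0.74 to 1.05), and that of T28A11.19 without smg-1 triple mutant library A, B or D or egl-9 hif-1 library A, B or E (0.80 to 0.96). Calls were also gained. With a DESeq2 Wald test T20D4.11 (0.59, adjusted p = 0.0075) and T28A11.25 (0.72, adjusted p = 0.014) passed. In either direction 4 to 17 members passed over the other settings, the 4 with a 5 CPM filter that left 7 members to test. Leaving out 1 library gave 9 to 15. In the smg-2 triple mutant against egl-9 hif-1 there were 8 higher members and 3 lower ones, with 25.8% higher and 26.0% lower over all genes (median 0.34, against 0.0045 over all genes). The 3 lower were F35F10.5 (-0.56 ± 0.21, adjusted p = 0.026), C17B7.12 (-1.42 ± 0.58, adjusted p = 0.039) and T28A11.22 (-1.74 ± 0.68, adjusted p = 0.031). The F35F10.5 call was lost without smg-2 triple mutant library B or D, or egl-9 hif-1 library C, D or E (-0.52 to -0.36). That of C17B7.12 was lost without smg-2 triple mutant library B, C, D or E, or egl-9 hif-1 library C, D or E (-1.44 to -0.87). That of T28A11.22 was lost without smg-2 triple mutant library B, C, D or E, or egl-9 hif-1 library A or D (-1.59 to -1.09). With limma on the deposited log2 values the calls of F35F10.5, C17B7.12 and T28A11.22 were lost too (adjusted p = 0.064, 0.093 and 0.091). In edgeR, that of F35F10.5 was also lost with a 5 CPM filter (adjusted p = 0.10) and that of C17B7.12 with no filter (adjusted p = 0.056). For the smg-2 triple mutant the 11 calls in either direction became 2 to 13 over the other settings and 8 to 13 leaving out 1 library. Both comparisons share the egl-9 hif-1 libraries, so members called in both are not independent evidence, and the values of each comparison are given side by side. C17B7.5, with 2775 exonic bases the longest member, had 4.76, 2.66, 2.88, 4.2 and 3.01 TPM in the smg-2 triple mutant, 1.59, 1.97, 0.76, 1.53 and 1.93 TPM in the smg-1 triple mutant and 0.27, 0.40, 0.20, 0.62 and 0.27 TPM in egl-9 hif-1. Its log2 fold changes against egl-9 hif-1 were 3.14 ± 0.27 (adjusted p = 3.4e-13) in the smg-2 triple mutant and 1.99 ± 0.27 (adjusted p = 5.8e-08) in the smg-1 triple mutant. The triple mutant libraries did not overlap those of egl-9 hif-1.

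C17B7.8 had 2.33, 1.51, 2.16, 1.61 and 1.79 TPM in the smg-2 triple mutant, 1.91, 2.26, 1.14, 1.90 and 2.53 TPM in the smg-1 triple mutant and 0.55, 0.53, 0.16, 0.39 and 0.26 TPM in egl-9 hif-1, with log2 fold changes of 2.17 ± 0.35 (adjusted p = 1.6e-06) and 2.28 ± 0.35 (adjusted p = 8.5e-07) in the smg-2 and smg-1 triple mutants. F35F10.14 had 1.38, 2.32, 3.79, 2.95 and 3.55 TPM in the smg-2 triple mutant, 3.54, 3.24, 2.36, 3.09 and 3.49 TPM in the smg-1 triple mutant and 1.32, 0, 0.64, 0.63 and 0.21 TPM in egl-9 hif-1, with log2 fold changes of 2.24 ± 0.48 (adjusted p = 0.00016) and 2.43 ± 0.47 (adjusted p = 6.1e-05). For both genes the triple mutant libraries did not overlap those of egl-9 hif-1. In the same order the log2 fold changes of C17B7.3 were 2.21 ± 0.44 (adjusted p = 4.5e-05) and 2.98 ± 0.42 (adjusted p = 1.8e-07), those of T20D4.15 1.47 ± 0.35 (adjusted p = 0.00047) and 1.85 ± 0.34 (adjusted p = 2.3e-05), those of F35F10.6 1.13 ± 0.16 (adjusted p = 1.5e-07) and 1.14 ± 0.16 (adjusted p = 1.8e-07), and those of T28A11.17 1.11 ± 0.25 (adjusted p = 0.00019) and 1.37 ± 0.24 (adjusted p = 8.9e-06). C17B7.5, C17B7.8, F35F10.14, T20D4.15 and T28A11.17 are outside the rule for named members and were chosen after their values were seen. F35F10.13, which lies beside F35F10.14, had -0.11 ± 0.31 (adjusted p = 0.80) and 0.07 ± 0.30 (adjusted p = 0.88), which did not pass.

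In the libraries that chose the clones, the values were as follows and carry no test. In egl-9 against N2, 24 of the 25 had a negative fold change, with a median log2 fold change of -4.58 (-4.55 with genes absent from 1 group at their bound), where 21.8% of all genes were called lower and 11.9% higher. For egl-9 hif-1 the median was 4.35 against egl-9 (4.22 with bounds) and -0.06 against N2. The median was 0.60 in smg-2 against N2 and 0.76 in smg-1 against N2, where the median of all genes was 0.07 and 0.11. T20D4.7 and F35F10.14 had the highest values in smg-1 against N2 (3.47 and 3.33). Between the low genotypes, the median was 0.12 in the smg-2 double mutant against egl-9 and 1.43 in the smg-1 double mutant against egl-9 (1.06 with bounds). The summed level of the smg-2 double mutant, smg-1 double mutant and egl-9 libraries nonetheless stayed at 18.6, 27.7 and 17.03 TPM, against 151 TPM in N2.

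Many genes elsewhere in the genome had a similar profile. Over the 9 genotype means of log2 CPM, 1304 of 16028 tested genes outside the clones had a Pearson correlation above 0.9 with the mean profile of the 25 tested members; the points share libraries and include the egl-9 and N2 values that chose the clones, so no p is given. The most alike was grd-1 on chromosome X (r = 0.992), a gene of the hedgehog-related groundhog family, followed by Y57G11C.41 on IV, dach-1 on V, the pseudogene WBGene00022082 on IV, C53B4.2 on IV, and F40G12.2, ugt-30 and clec-245 on V. grd-1 had mean levels of 0.95 in the smg-2 triple mutant, 0.43 in the smg-2 double mutant, 0.97 in smg-2, 0.91 in the smg-1 triple mutant, 0.39 in the smg-1 double mutant, 1.06 in smg-1, 0.70 in egl-9 hif-1, 0.42 in egl-9 and 0.84 in N2 (TPM). dach-1 had mean levels of 6.004 in the smg-2 triple mutant, 0.30 in the smg-2 double mutant, 4.16 in smg-2, 4.48 in the smg-1 triple mutant, 0.39 in the smg-1 double mutant, 6.09 in smg-1, 3.41 in egl-9 hif-1, 0.21 in egl-9 and 3.79 in N2 (TPM). Both are lowest in the 3 low genotypes, but grd-1 over a much narrower range than dach-1. ugt-30 had mean levels of 12.9 in the smg-2 triple mutant, 5.52 in the smg-2 double mutant, 16.8 in smg-2, 15.3 in the smg-1 triple mutant, 4.66 in the smg-1 double mutant, 17.1 in smg-1, 12.4 in egl-9 hif-1, 4.37 in egl-9 and 11.1 in N2 (TPM).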

How the data were processed

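PolyA RNA-seq of whole worms was measured in 45 libraries, 9 genotypes with 5 libraries each, grouped by the genotype in the sample titles. Per the submitters' processing notes, FastQC, STAR 2.7.9a, RSEM 1.3.0, DESeq2 and build WBcel235 were used, with no roles or order given. The authors deposited a table of estimated counts, already rounded to whole numbers per the file's values, and a table of log2(TPM + 1) values, which were back-transformed to TPM here. Whether counting used strand is not given in the sources used here.

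The counts were tested with edgeR 4.0.16 in R 4.3.3 (TMM scaling, filterByExpr by genotype, quasi-likelihood F test). A single model of 9 genotype means was fitted to all 45 libraries, with 36 residual degrees of freedom. Of the 46926 genes, 16053 passed the filter, which left out 0.0372% of counts. P-values were adjusted by Benjamini-Hochberg over all genes tested in a comparison and called at 0.05. SE is the log2 fold change divided by the root of its F statistic. For a member with 0 counts in a group, the fold is a bound at 3 counts over the 5 libraries. With 1 to 3 counts, it is a ratio with an exact 95% interval. The interval covers counting error only, and the bound covers only that of the group at 0. Contrasts that use N2 or egl-9 libraries are given without a test, because the clones were chosen on them.

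The members and lists were chosen with earlier results of these data known. Values in every library are given for the 10 members with the highest mean TPM and for the highest of each clone, 11 in all. For neighbours within 100 kb, the 4 with the highest mean TPM were named. For likeness, the 8 genes with the highest correlation were named, over genotype means of log2 CPM with a prior count of 2. Gene coordinates come from the Ensembl 115 annotation of WBcel235. No sequence was used here.

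Replicate letters were not used to pair the libraries, because in 0 of 17 comparisons did every same-letter pair correlate above 0.1. That rule does not exclude shared structure by letter. The median correlation over all pairs was 0.15 for the same letter and -0.02 for different letters. Libraries of a genotype differed by more than counting noise in all 90 pairs (chi-square per degree of freedom 4.89 to 88.5). The alternatives were DESeq2 1.42.0 size factors and Wald test, no filter, a 5 CPM filter, limma 3.58.1 on the deposited log2 values, only the genotypes compared, a replicate block and leaving out each library.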

Additional observations from a re-analysis of the deposited data

Results flagged for a closer look

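In each group of 5 libraries, a library was marked where its gap to the nearest other took more than 0.71 of the group's range. This marked 12 of 162 groups. Chance would give about 8.1 for normally distributed values, which TPM values near 0 are not. A group with 1 library above 0 and the others at 0 is always marked. The mean log2 CPM of the members was highest in smg-2 replicate C, at 1.97, against 1.67 to 1.75 in the other smg-2 libraries. T28A11.2 was lowest in smg-2 replicate E, at 45.92 TPM, against 58.25 to 62.75. F35F10.1 was highest in egl-9 hif-1 replicate D, at 16.5 TPM, against 7.74 to 9.11. T20D4.3 was highest in smg-2 replicate E, at 3.89 TPM, against 3.23 to 3.30. T28A11.22 was highest in the smg-2 triple mutant replicate A, at 1.67 TPM, against 0 to 0.17.

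T20D4.7 had 89.61 TPM in smg-1 replicate C, against 21.35 to 36.28 in the other smg-1 libraries. Without that library T20D4.7 was still lower in the smg-1 triple mutant than in smg-1 (log2 fold change -1.50, edgeR adjusted p = 0.012).

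The 6 remaining marks fell in genotypes with the egl-9 mutation and hif-1 intact. F35F10.5 was at 0.06 TPM in the smg-2 double mutant replicate E, with 0 in the others. F35F10.13 was at 0.22 TPM in the smg-2 double mutant replicate C, with 0 in the others. C17B7.3 was at 0.53 TPM in the smg-2 double mutant replicate B, against 0 to 0.08, and at 0.09 TPM in egl-9 replicate C, with 0 in the others. F35F10.6 was at 2.28 TPM in egl-9 replicate D, against 1.22 to 1.44, and T20D4.10 at 0.59 TPM in the same library, against 0.12 to 0.21.

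The effect of hif-1 loss differed between the smg-2 and smg-1 backgrounds for 3 of 25 members, by a test of the difference in edgeR, where 14.6% of all genes tested differed. The share of the members that passed was thus below that of all genes. The differences (smg-2 minus smg-1, log2) were 2.01 for F35F10.1 (adjusted p = 1.5e-05), 1.71 for C17B7.5 (adjusted p = 0.00073) and 0.74 for T28A11.2 (adjusted p = 0.046). As given above, the T28A11.2 call was lost in several alternatives that leave out 1 library. It was also lost with limma on the deposited log2 values (0.52, adjusted p = 0.14). As a description of the libraries that the test used, and not as further support, each of the 3 was higher in every smg-2 triple mutant library than in any smg-2 double mutant library. In the smg-1 background this held for F35F10.1 and T28A11.2, while C17B7.5 overlapped (at least 0.76 TPM in the smg-1 triple mutant, at most 0.91 TPM in the smg-1 double mutant).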

How the results depend on the processing

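In the comparisons of egl-9 loss and of hif-1 loss within the smg backgrounds, the tested members kept their direction and their side of the threshold in 1616 of 1617 values under alternatives. The exception was T28A11.20 in the smg-2 triple mutant against the smg-2 double mutant with the deposited log2 values (0.13, adjusted p = 0.23). A minimum mean of 5 CPM left 7 members to test, and all 7 were called in each of these 4 comparisons; leaving out any 1 library kept the count at 24. With that filter, 1 member differed in the smg-1 triple mutant against smg-1 and 2 in the smg-2 triple mutant against smg-2. In smg-2 against smg-1, 1 differed. Against egl-9 hif-1, 4 differed in the smg-1 triple mutant and 2 in the smg-2 triple mutant. Fewer genes could be tested, and calls also changed among the members still tested. In edgeR, F35F10.5 lost its call in the smg-2 triple mutant against egl-9 hif-1 (adjusted p = 0.10). T20D4.11 and T20D4.3 gained one in the smg-1 triple mutant against egl-9 hif-1 (adjusted p = 0.029 and 0.044). With only the genotypes compared, 1 member differed in the smg-1 triple mutant against smg-1, 2 (of 9 tested) in the smg-2 double mutant against the smg-1 double mutant, and 6 in the difference of the hif-1 effect.

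The replicate block, which pairs libraries by letter, gave 4 members in smg-2 against smg-1 and 1 in the difference of the egl-9 effect, where the model without it gave 2 and 0. Whether the letters mark shared batches or days is not given in the sources used here, and the median correlation of deviations was 0.15 for same-letter pairs and -0.02 for others. The DESeq2 Wald test gave 4 and 3 in the same comparisons. The deposited log2 values gave 5 and 1, and 3 in the smg-2 double mutant against the smg-1 double mutant, and reversed the hif-1 effect difference of F35F10.5 (-0.87). Leaving out 1 library gave 2 to 4 members in smg-2 against smg-1, 3 to 6 in the smg-2 double mutant against the smg-1 double mutant, 0 to 1 in the egl-9 effect difference and 2 to 5 in the hif-1 effect difference. The causes were not tested, and the shares of all genes under these alternatives are not given here.

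Among the untested descriptions, the median in egl-9 against N2 was -3.91 with no filter, -3.94 with the 5 CPM filter, -3.63 with DESeq2 and -1.35 with the deposited log2 values. For egl-9 hif-1, set against egl-9, it was 3.83 with no filter, 3.89 with DESeq2, 1.36 with the deposited values, and 4.21 to 4.88 leaving out 1 library. In the smg-1 double mutant against egl-9 it was 0.98 with no filter and 0.12 with the deposited values. The deposited values add 1 to TPM, which compresses folds of genes this low. Depth limits the low genotypes, where fold sizes rest on few counts.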
